A study of Mus musculus with 38 samples.

Results

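The regions described here are stretches of the mouse genome in which the histone mark H3K4me1 ran without a called break for at least 15000 bp in epidermal stem cells (EpdSCs) at 1 or more of 5 time points after SOX9 induction. A domain is a stretch of 200 bp bins that the caller epic2 reported as 1 enriched interval. Not every bin in it need have been enriched. Domains whose end minus start, as written in the deposited lists, was at least 15000 bp were taken from the 5 lists and merged where they shared at least 1 bp. Because the written end is the last base of a bin, the narrowest domain that qualified spanned 15200 bp, or 76 bins. In all, 7287 of 384013 domains qualified, and they merged into 2942 regions of 101193 in the 5 lists together. The widths themselves therefore chose the members and are given as a description. H3K27ac, gene positions, cultured cells and base composition were not used in the choice.

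The skin cells came from male mice of the genotype K14rtTA; TRE-myc-Sox9, in which the Krt14 promoter drives the doxycycline (DOX) dependent activator rtTA and the activator in turn drives MYC-tagged SOX9 in the epidermis. Except for the grafts, DOX was given from postnatal day 21, and cells were sorted as negative for CD31, CD45, CD117, CD140a and CD34, high for CD49f and high for Ly6A. D0 cells were collected before DOX, and W1, W2, W6 and W12 cells after 1, 2, 6 and 12 weeks of it. The W12 cells came from neonatal skin grafted onto immunocompromised hosts, so that time and grafting cannot be told apart at W12, and there was no uninduced skin at the later times. Each list pools 2 replicates and, per the labels, high and low MNase digests, and replicate 1 of W2 was sequenced in the W12 libraries under its own barcode. A list has no replicate error, and no difference between lists could be tested. In addition, 4 pooled H3K4me1 lists came from cultured Krt14-rtTA keratinocytes carrying DOX-inducible SOX9, namely WT without DOX, WT, a version without the DNA-binding HMG domain (noHMG) and a version without the transactivation domain (noTA).

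H3K4me1 is laid down mainly by MLL3 and MLL4 and marks enhancers, whether active or poised. H3K27ac, placed by CBP and p300, marks the active ones and active promoters, where H3K4me1 gives way to H3K4me3. Long unbroken stretches of enhancer marks are known to lie near genes that define a cell type, which in this epithelium include keratins, hemidesmosome components and the p63 network.

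The depth behind the H3K4me1 lists is unknown, since they hold positions and p-values without counts. Where 5 values follow each other, they are given in the order D0, W1, W2, W6, W12. A p-value was written as 0 for 98.4%, 78.7%, 63.1%, 97.0% and 69.0% of the very broad domains, so that this share differed between lists. The part of depth in the number of wide domains was not tested. The H3K27ac lists differed as well, and W12 held the most peaks (33985, against 29081 to 32544 in the others). Outside the regions its peaks had a median width of 455 bp, against 616 to 791 bp in the other lists. The background pileup estimated for each H3K27ac list, a rough measure of depth, was 0.501, 0.299, 0.425, 0.677 and 0.411. It was thus lowest at W1 and highest at W6. The part of depth and of peak calling in H3K27ac cover was not tested. In the paragraphs that follow, a region is called by the protein-coding gene whose start site it holds, otherwise by the gene it lies in or the gene nearest to it.

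Sequence was read for the H3K27ac summits that stand inside the widest members, to show places in a region at which this mark was centred. The windows below are 200 bp centred on the summit of the peak with the highest fold enrichment among those with a summit in the region, on the plus strand of GRCm38. Capitals mark any match on either strand to TGANTCA (AP1), AACAATG (a first SOX sequence), AACAAAG (a second SOX sequence), AGATAA (the sequence of GATA factors), TGTGGTT (RUNX) or a CATG pair spaced by 6 bases (p63). The first was taken from the widest region of all, the second from the region that broke into the most domains, and the last 3 from the widest regions that were very broad at D0 only, W2 only and W6 only. This choice among the members was made after their values were seen.
Ankrd11 intron, chr8:123021592-123021791: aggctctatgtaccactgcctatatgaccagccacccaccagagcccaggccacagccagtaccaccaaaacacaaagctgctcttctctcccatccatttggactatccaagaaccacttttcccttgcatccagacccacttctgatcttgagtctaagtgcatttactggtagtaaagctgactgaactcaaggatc
Med13l intron, chr5:118594526-118594725: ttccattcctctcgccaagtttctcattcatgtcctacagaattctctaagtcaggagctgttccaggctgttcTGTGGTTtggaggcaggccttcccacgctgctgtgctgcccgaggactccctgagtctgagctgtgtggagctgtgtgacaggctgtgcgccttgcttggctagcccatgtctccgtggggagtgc
Il1r2 intron, chr1:40086061-40086260: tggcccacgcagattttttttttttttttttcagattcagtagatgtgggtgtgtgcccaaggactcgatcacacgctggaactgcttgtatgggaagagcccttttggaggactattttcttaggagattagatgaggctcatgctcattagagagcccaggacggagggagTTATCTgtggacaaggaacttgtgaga
Ldlrad3 intron, chr2:102127365-102127564: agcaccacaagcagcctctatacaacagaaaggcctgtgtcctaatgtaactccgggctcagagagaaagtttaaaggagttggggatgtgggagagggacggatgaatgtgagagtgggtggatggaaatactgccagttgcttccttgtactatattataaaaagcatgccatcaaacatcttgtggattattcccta
intergenic, nearest start Smoc2, chr17:14241809-14242008: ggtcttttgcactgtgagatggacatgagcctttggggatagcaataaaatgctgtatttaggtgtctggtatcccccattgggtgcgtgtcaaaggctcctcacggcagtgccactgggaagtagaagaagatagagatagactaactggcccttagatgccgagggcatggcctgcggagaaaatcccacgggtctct

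The Ankrd11 window was covered by an H3K27ac peak in all 5 lists, with its highest fold of 19.3 at D0. The Med13l window was covered at W6 alone, at a fold of 7.75, and holds a RUNX match. Peaks that reach into that region with their summits outside it were stronger, up to a fold of 18.5 at W6. The Il1r2 window was covered at D0 and W1, with a fold of 14 at D0, and holds a GATA match on the minus strand. The Ldlrad3 window was covered at W2 and W6, with a fold of 7.72 at W2. The window near Smoc2 was covered at every time except D0, with a fold of 20.3 at W6. The Ankrd11, Ldlrad3 and Smoc2 windows hold none of the searched letters.

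The number of very broad domains was highest before induction. The D0 list held 1904 of them, 2.18% of its domains, and they made up 14.2% of all bases in that list. W1 held 1347 (1.94% of domains, 11.5% of bases), W2 1523 (2.07%, 11.8%), W6 1421 (1.79%, 11.7%) and W12 1092 (1.47%, 8.78%). Their median width was close to 20 kb throughout, with 19800 bp, 19400 bp, 19800 bp, 19600 bp and 18800 bp in order of time. The widest domain of each list was 142600 bp, 91000 bp, 102000 bp, 83800 bp and 84800 bp in order of time. The limit cut through a continuous range, since 264 domains of exactly 15200 bp were taken in and 268 of 15000 bp were left out. Among the first ones in genome order just inside were a W1 domain over the starts of Rufy4 and Tns1, a W12 domain nearest to Slc16a14 and a D0 domain in Sh3bp4, with 4, 1 and 1 H3K27ac peaks. Just outside were a W12 domain in Lrrfip1, a D0 domain over the start of Serpinb12 and a W6 domain in Mgat5, with 2, 0 and 3 peaks.

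**Figure D1:**
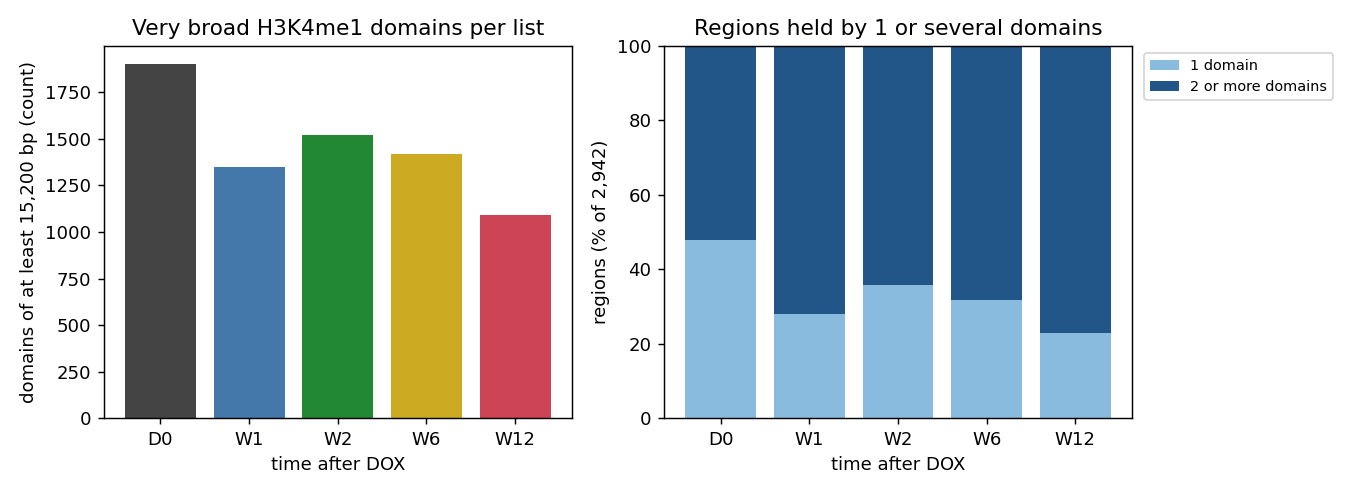
The left panel plots the number of very broad H3K4me1 domains in each pooled list, and the right panel the percentage of the 2942 regions that were held by 1 domain or by 2 or more at each time. D0 had the most very broad domains (1904) and the fewest split regions (52.1%). W12 had the fewest domains (1092) and the most split regions (77.0%). The panels are not independent, since a region very broad in 1 list only is unsplit there. The lists have no replicate error.

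A region was 15200 to 142600 bp long, with a median of 20600 bp, and the 2942 regions together spanned 72.1 Mb. Most did not qualify at every time. The limit was reached in 1 list by 1274 regions (43.3%), in 2 lists by 537, in 3 by 368, in 4 by 332 and in all 5 by 431 (14.6%). Of those that qualified once, 526 did so at D0 and 128, 319, 189 and 112 from W1 to W12. These classes mark where a region passed a width limit, not where H3K4me1 appeared. A domain of some width was present in every list in 2930 of the 2942 regions, and only 3 to 5 regions lacked one at any given time. In the 526 regions that were very broad at D0 only, H3K4me1 still covered 78.0%, 68.3%, 66.7% and 69.5% of bases from W1 to W12. In the 319 regions that were very broad at W2 only, it covered 64.0% at D0, 66.5% at W1, 66.0% at W6 and 63.4% in the last list.

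The lists differed in how the mark was divided. At D0, 52.1% of regions were held by 2 or more domains, against 71.8%, 64.1%, 68.1% and 77.0% from W1 to W12. The median width of the widest domain in a region was 16400 bp, 13600 bp, 15000 bp, 14100 bp and 12000 bp in order of time. The covered share of all region bases moved less, from 88.2% at D0 to 84.5%, 85.8%, 82.5% and 80.0% at the later times. In every list, 120 regions were a single domain and 283 were split.

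Domains that were very broad at D0 were followed into each later list. At W1, 62.7% of the 1904 were split into 2 or more domains (exact 95% interval 60.5 to 64.9, counting error only), where 6.18% of all D0 domains were. For W2, W6 and W12 in turn the same share was 65.0%, 64.2% and 70.6%, beside 5.52%, 6.39% and 6.5% of all D0 domains. Narrower D0 domains, of over 10000 to 15000 bp, were split in 45.3%, 43.7%, 46.1% and 49.2%. At W1 0 of the 1904 lacked a counterpart sharing at least 1 bp, and later 1 or 2 did. Of all D0 domains, most of which are far narrower, 27.8%, 32.4%, 26.6% and 31.2% had none in the 4 later lists, but of those from 10000 bp up to the limit 0.0368%, 0.736%, 0.589% and 0.295%, so that a wide domain seldom lacks one. Splitting also occurred in the other direction. Of the domains that were very broad at a later time, 38.7% from W1, 54.5% from W2, 48.7% from W6 and 40.8% from W12 were split at D0, where 5.36%, 7.3%, 5.42% and 5.3% of all domains of those lists were. Selecting the wide end of one list makes the other list look narrower whichever is chosen, so that the direction of a change cannot be read from either count by itself.

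The breaks were short. The median gap between neighbouring domains of a region was 1200 bp in every list, and the smallest was 800 bp. No shorter gap was called in any list, so that shorter stretches without the mark cannot be seen inside a domain. A protein-coding start site stood in 11.6% of the gaps at D0 and 6.56%, 3.85%, 3.9% and 6.28% from W1 to W12. Per 100 kb of sequence, gaps at D0 held 6.6 start sites and the domains around them 1.99, whereas at W2 gaps held 2.25 and domains 2.3. Gaps at a start site mostly carried the active mark. An H3K27ac peak of the same time was found in 85.3% of them at D0 and 80.9%, 74.4%, 79.4% and 74.7% from W1 to W12. Of the gaps without a start site, 3.5%, 3.81%, 3.14%, 1.78% and 4.29% had one. H3K27ac covered 6.75% of gap bases and 13.8% of domain bases at D0, and 2.18% and 17.5% at W2.

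The 10 regions with the widest single domains all qualified in every list, but their profiles over time differed. The Ankrd11 region (chromosome 8, 122898601 to 123041200), at a gene for a chromatin regulator that recruits histone deacetylases, was 1 domain of 142600 bp at D0. From W1 to W12 it was held by 3, 6, 6 and 3 domains, the widest of them 91000, 50600, 52200 and 66200 bp. The breaks were narrow, since 92.8% of the region was still covered at W2 and at W6. The region in Med13l, a subunit of the Mediator kinase module, began 862 bp from a start site and was widest at D0 (108800 bp in 2 domains). From W1 to W12 it was in 6, 3, 12 and 8 domains, with H3K4me1 over 88.2 to 99.2% of it throughout.

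Other wide regions peaked at W2. The Zbtb16 region, at the gene for the zinc finger factor PLZF, had widest domains of 52400 bp, 70600 bp, 102000 bp, 31600 bp and 18400 bp in order of time. Its H3K4me1 cover was 98.1% at W2 and 41.7% at W12, and its H3K27ac cover 9.95% and 0.834%. The region in Ssbp3, a partner of LIM-domain complexes, was 1 domain of 99400 bp at W2 and in 6, 5, 5 and 8 domains at D0, W1, W6 and W12. The region in Pard3, a cell polarity gene, reached 98000 bp at W2 against 68800 bp at D0 and 43200 bp at W12. The Sept9 region, at a cytoskeletal septin, reached 87000 bp at W2 and 35600 to 48000 bp at the other times.

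In other regions the widest domain was narrowest at W2. The region in Bcl11b, a transcription factor of the skin epithelium, was 4 domains at W2, the widest of 29200 bp, and a single domain of 83200 to 84000 bp in each of the other lists. The Tnnt2 region, which also covers parts of Lad1 and the desmosomal plakophilin Pkp1, had a widest domain of 39600 bp at W2 and of 84800 bp, unbroken, at W12. H3K27ac covered 27.2 to 45.3% of that region in every list, and the highest fold in it was 38, at D0. Rxra, a nuclear receptor, and Ptpn14, a phosphatase that restrains YAP, completed the 10. The Rxra region stayed between 71400 and 92000 bp, and the Ptpn14 region went from 87000 bp at D0 and 88200 bp at W1 to 43600 bp at W12.

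**Figure D2:**
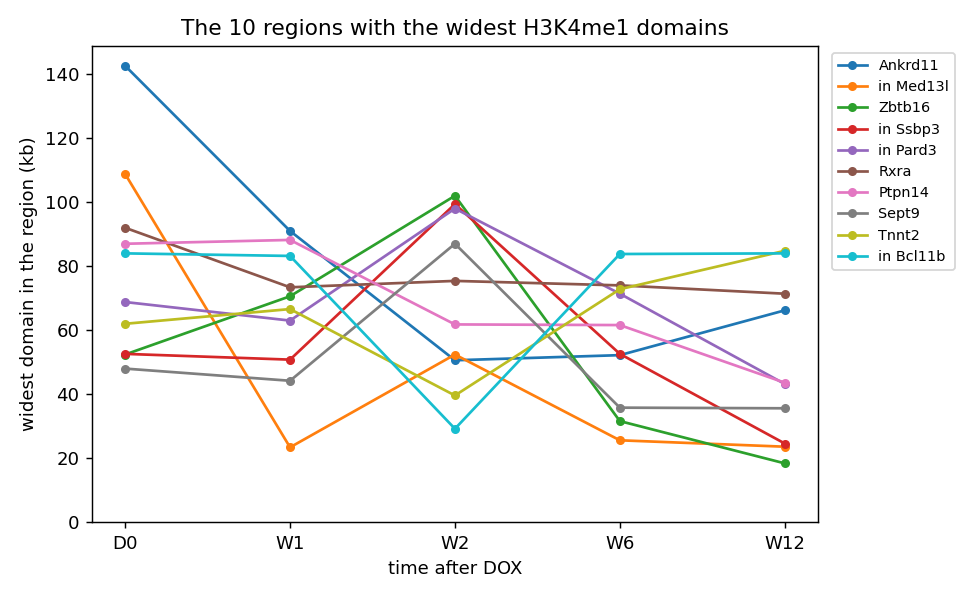
Lines give, for the 10 regions with the widest single H3K4me1 domain, the width in kb of the widest domain overlapping the region in each pooled list. Ankrd11 and Med13l had their widest domain at D0, Zbtb16, Ssbp3, Pard3 and Sept9 at W2, and Tnnt2 at W12.

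The widest region with a qualifying domain in all 5 lists, by the narrowest of its 5 widths, was Rxra. Others among the first 5 were Ankrd11, Dip2b (47800 to 59800 bp) and an intergenic region on chromosome 1 (193530001 to 193584000; 47000 to 54000 bp). The last neighbours a region beside the miR-205 gene, described further on, and lies 159703 bp from the nearest protein-coding start, that of Camk1g. Regions that came in the most domains in a single list were Med13l (12 at W6), Ppp2r2c (11 at W12), Zbtb16 (11 at W6), one near the chemokine gene Cxcl14 (10 at W12) and Adarb1 (9 at W12). The region near Cxcl14 had widest domains of 64000, 54200, 56400, 18800 and 19400 bp from D0 to W12. H3K27ac covered 10.8%, 20.1%, 23.4%, 4.97% and 0.494% of it in the same order, so that both marks were low together at W6 and W12.

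H3K27ac, a separate measurement, was present in nearly every region. A peak of the same time overlapped 87.5% of the regions at D0 (exact 95% interval 86.2 to 88.6), 89.5% at W1 (88.3 to 90.5), 88.2% at W2 (87.0 to 89.3), 86.7% at W6 (85.5 to 87.9) and 83.9% at W12 (82.5 to 85.2), and these intervals cover counting error only. Of all H3K4me1 domains, 22.8%, 29.6%, 27.4%, 25.9% and 24.4% overlapped one, most of them being far narrower. Of those from 10000 bp up to the limit, 79.9%, 86.0%, 81.5%, 85.2% and 77.5% did, so that a peak was nearly as common there. The regions are merged over lists, and the domains are of a single list. Very broad domains of a single list had a peak in 94.2%, 96.5%, 92.8%, 97.5% and 93.7%. A peak was found in every list in 2033 regions (69.1%), in some lists in 867 and in no list in 42 (1.43%). Together the regions held 31.6% of all H3K27ac peaks at D0 and 31.8%, 30.6%, 30.7% and 23.2% from W1 to W12. The peaks inside were mostly away from promoters. At D0, 78.8% of them lay over 2500 bp from a protein-coding start site, against 55.7% of peaks elsewhere, and at W12 the shares were 77.8% and 69.4%. Their fold enrichment was not higher in every list. The median was the same inside and outside at D0 (6.0), W1 (5.39) and W2 (6.32), lower inside at W6 (6.56 against 7.16) and higher inside at W12 (5.67 against 4.96).

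A wide domain has more bases in which a peak can fall, and the share of its bases under H3K27ac, which allows for that, was also higher in wider domains in every list. At D0 it was 1.79% in the narrowest domains (up to 2 kb), 11.5% in those of over 10000 to 15000 bp, 14.3% from 15200 to 30000 bp and 17.9% above that. At W6 the same classes had 2.63%, 15.8%, 19.6% and 26.6%, and at W12 2.49%, 10.1%, 12.2% and 15.9%. Peaks per 10 kb were likewise 0.431 in the narrowest class at D0 and 1.85 in the widest.

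**Figure D3:**
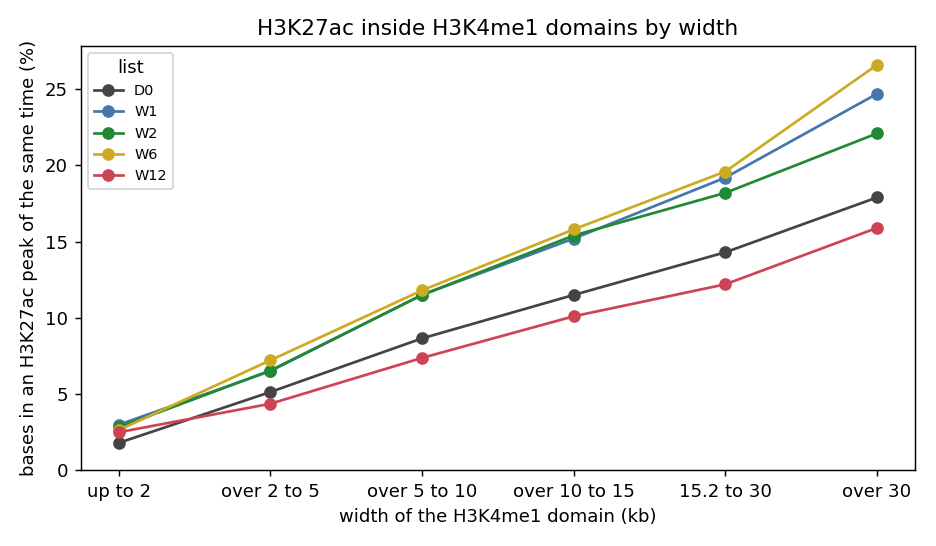
Each line is a time point and gives the percentage of bases in H3K4me1 domains of a width class (x axis, in kb) that lay in an H3K27ac peak of the same time. All 5 lines rise through the 6 classes, from between 1.79 and 2.98% in the narrowest to between 15.9 and 26.6% in the widest.

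H3K27ac was next compared between regions whose H3K4me1 was very broad at different times. Over all regions, peaks covered 12.8% of bases at D0 and 14.5%, 15.3%, 13.9% and 8.54% from W1 to W12, so that W12 was low in general. In the 526 regions that were very broad at D0 only, cover was 10.7% at D0 and 8.87%, 7.44%, 6.3% and 5.06% afterwards. In the 319 that were very broad at W2 only, it was 5.25%, 7.52%, 10.1%, 7.25% and 4.59% in order of time. In the 189 W6-only regions it was 9.93%, 12.6%, 15.9%, 17.3% and 9.91% in that order, and in the 128 W1-only regions 9.31%, 13.7%, 13.4%, 9.69% and 5.9%. The 112 W12-only regions did not have their highest cover at the time they were very broad, with 9.99%, 9.63%, 11.6%, 11.5% and 9.34%. The 279 regions that were not very broad at D0 but were at 2 or all of W2, W6 and W12 had 8.93%, 13.8%, 18.6%, 18% and 9.77%. Cover was higher at W2 than at D0 in 69.9% of W2-only regions and in 28.5% of D0-only regions, beside 56.1% of all regions. The share of regions with any peak moved likewise, from 61.8% at D0 to 82.8% at W2 in the W2-only regions (intervals 56.2 to 67.1 and 78.2 to 86.7) and from 88.8% to 70.2% in the D0-only regions (85.8 to 91.4 and 66.0 to 74.0). The 431 regions that were very broad throughout had the most, with 19.0%, 21.6%, 22.7%, 21.4% and 12.2%. Both marks were measured in the same sorted cells, so that a shift in which cells were sorted would move both, and this was not tested.

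**Figure D4:**
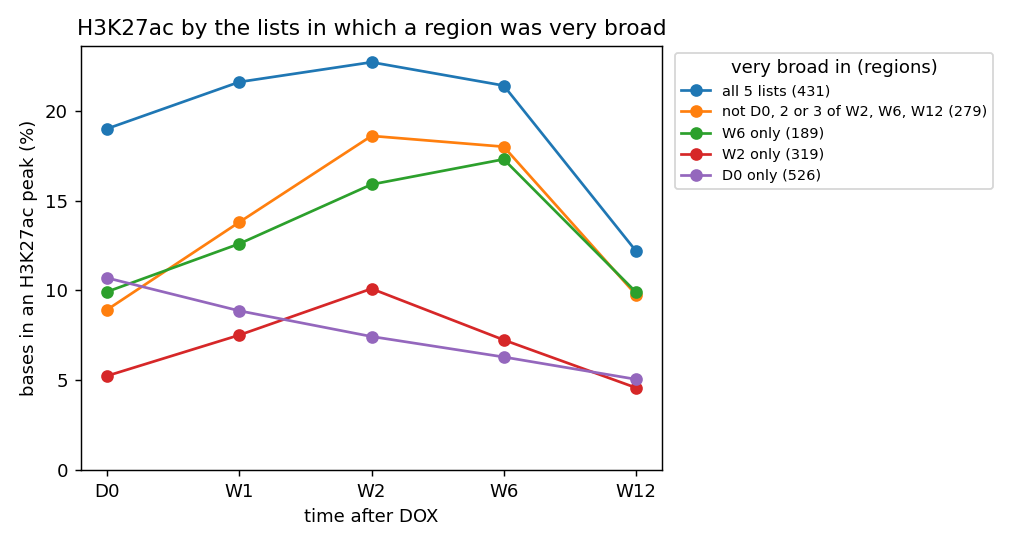
Lines give the percentage of region bases in an H3K27ac peak at each time for regions grouped by the lists in which their H3K4me1 was very broad, with the number of regions in parentheses. D0-only regions are at 10.7% at D0 and 5.06% at W12, while W2-only regions are highest at W2 (10.1%) and W6-only regions at W6 (17.3%).

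Of the regions that were very broad at D0 only, the widest was at Il1r2, the decoy receptor for interleukin 1 (chromosome 1, 40052001 to 40111600). It was 1 domain of 59600 bp at D0, and its widest domains later were 13400, 11600, 11200 and 10800 bp. It held 11 H3K27ac peaks at D0 and 4, 2, 1 and 1 from W1 to W12, and their share of bases was 14.1%, 5.08%, 1.59%, 0.487% and 0.572%. The next was 47600 bp over Ankrd40 and Luc7l3, where H3K27ac did not follow, with 10.5% at D0 and 14.8% at W2. The third was an intergenic 39200 bp nearest to Rpusd4 with 2 peaks at D0 and none at W2.

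The widest W2-only regions lay in Ldlrad3 (54400 bp), in Tcf7l2 (52000 bp) and in Sfrp1 (45400 bp). Tcf7l2 encodes TCF4, a Wnt-responsive factor of hair follicle stem cells, and Sfrp1 a secreted Wnt inhibitor. The Tcf7l2 region (chromosome 19, 55812201 to 55864200) was in 6 domains at D0, 6 at W1, 7 at W6 and 7 at W12, none above 12800 bp. H3K4me1 covered 54.6% of it at D0, 69.2% at W1 and all of it at W2. H3K27ac covered 1.81%, 5.15%, 7.21%, 0% and 1.94% in order of time. The Sfrp1 region had 0.782%, 3.54%, 6.63%, 3.71% and 0%, and the Ldlrad3 region 0%, 3.35%, 5.82%, 2.25% and 0%. All 3 thus had their highest H3K27ac cover in the list in which they were widest, and all 3 stayed low in level.

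The widest W1-only regions lay in Tbl1xr1 (31800 bp), nearest to Ism1 (30200 bp) and in Litaf (30000 bp). H3K27ac covered 0%, 7.31% and 14.9% of them at W1. Only in Litaf was this the highest cover of the 5 lists, since the Tbl1xr1 and Ism1 regions had 3.4% and 8.93% at W2. The widest W6-only regions were near Smoc2 (32600 bp), at Trp53i11 (29400 bp) and at Lmo1 (29000 bp). At Trp53i11 H3K27ac covered 13.8%, 19.3%, 23.4%, 32.1% and 4.66% in order of time. Cover at Lmo1 was also highest at W6, at 2.34%, but near Smoc2 it was 16.0% at W1 and 15.9% at W6. The widest W12-only region (chromosome 11, 3123201 to 3182800, in Sfi1) stood apart, since it was 59600 bp at W12, 1200 bp at W1 and had no domain at D0, W2 or W6, although H3K27ac peaks were called in it in every list. It lies near the start of the chromosome. The next W12-only regions, in Cdcp1 (25200 bp) and Lrrfip1 (24600 bp), had H3K4me1 over 42.1% and 79.7% at D0.

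Dense acetylation marked another set of regions. By H3K27ac cover averaged over the lists, the first 5 included an intergenic stretch on chromosome 1 (193510001 to 193529000), Hoxa3 to Hoxa7, a region in 2010111I01Rik and Hoxb2 to Hoxb6. HOX genes keep the body position of skin cells. Cover at the Hoxb region was 56.1%, 72.7%, 81.8%, 71.2% and 42.5% from D0 to W12, and at Hoxa3 to Hoxa7 65.6%, 91.1%, 75.9%, 75.2% and 27.7%. The chromosome 1 stretch was 1 domain of 17600 to 18800 bp in every list, with cover of 64.5%, 73.7%, 78.0%, 78.7% and 52.9%, and it begins 2470 bp from the miR-205 hairpin. At the other end, the widest of the 42 regions without any H3K27ac peak lay in Zbtb16 (29000 bp), in Tcf7l1 (24600 bp), at Scx (23600 bp), in Gm37240 (22200 bp) and in Nptn (20800 bp). The first 4 of these had their widest domain at W2 and the last at D0. The Tcf7l1 stretch was covered by H3K4me1 in full at W2, and over 33.3% at D0, 24.4% at W1, 37.4% at W6 and 54.5% at W12, with no H3K27ac in any of the lists.

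Most regions lay in or at genes. A protein-coding start site stood in 1176 regions (40.0%), another 1222 (41.5%) lay in a gene body without one, and 544 (18.5%) were intergenic, at a median of 51252 bp from a start. In all, 1463 of 21911 protein-coding genes had a start site in a region, or 6.68%, and 995 (4.54%) had at least 50% of their body inside a single region. With the regions over a gene added up, 1104 gene entries reached that share. Genes with a start in a region were longer, with a median of 25362 bp against 17425 bp for all. Start sites were most frequent in regions that were very broad in all 5 lists (53.4%) and least in W2-only regions (28.8%), 56.4% of which lay within gene bodies. The former were also longer, with a median of 33000 bp against 17400 bp, so that a start had more bases in which to fall. W6-only regions were the most often intergenic (38.1%). The regions were spread over the autosomes at 8.09 to 18.6 per 10 Mb, with the most on chromosome 11, while X held 12 (0.702 per 10 Mb) and Y none. Of the domains on X, 0.327% were very broad, against 1.35 to 2.45% on the autosomes. The cells were male, with a single X, and the part of this in the low count on X was not tested.

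Genes of the epidermis were counted from fixed lists, beside the 6.68% of all protein-coding genes. A start site in a region was found for 10 of 16 hemidesmosome and basement membrane genes, 10 of 20 keratins, 7 of 18 desmosome and adherens junction genes, 7 of 20 epidermal transcription factors and 9 of 23 HOX genes. Signalling lists had 8 of 25 for the Wnt pathway, 7 of 22 for TGF-beta and BMP, 4 of 16 for Notch, 2 of 10 for Hedgehog and 1 of 18 for the EGF receptor pathway. AP1 genes had 3 of 13, hair follicle stem cell factors 5 of 20, microRNA host genes 3 of 8 found in the annotation, and chromatin regulators 0 of 14. Housekeeping genes had 1 of 15. Markers of other cell types had none, with 0 of 9 for melanocytes, 0 of 12 for dermal fibroblasts, 0 of 10 for immune cells, 0 of 9 for endothelium and 0 of 10 for muscle and nerve. Cells with CD31, CD45, CD117 or CD140a, surface markers of several of these cell types, had been removed by sorting. Over the 5 lists, an H3K27ac peak was called at the start site of only 1 of the 50 marker genes, a melanocyte marker at W12. At D0, 27 of the 50 had a start in an H3K4me1 domain, which is close to the 53.1% of all protein-coding genes. The bodies of the melanocyte gene Mitf and the endothelial gene Pecam1 overlapped regions away from their starts, and H3K27ac covered 18.5 to 39.3% of the one in Pecam1. The lists were chosen with earlier results known, and the counts are a description. For a gene with a start in a region, the widths given below are those of the region or regions at its starts.

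The hemidesmosome genes, which anchor basal cells to the basement membrane, gave the highest share. Col17a1, the collagen of the hemidesmosome, lay in a region of 80800 bp with widest domains of 53000, 35000, 24000, 33000 and 63000 bp from D0 to W12. Plec, which encodes plectin, and Dst, which encodes dystonin, were very broad in all lists, at 22200 to 29600 bp and 21600 to 29600 bp, and a second region at a Plec start, shared with Grina and Parp10, was very broad at D0 only (23400 bp). Lamb3 went from 28400 bp at D0 to 16600 bp at W12. Itgb4, the beta4 integrin, went the other way and was very broad only at W12 (15200 bp, against 6200 to 11600 bp before). Lama3 qualified at W6 (22600 bp) and W12 (21400 bp) only. Within this single structure, therefore, regions were widest at different times.

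Keratin regions were widest at different times. The region over Krt1 and Krt77, a keratin pair in which Krt1 marks differentiating suprabasal cells, was 1 domain of 38200 bp at D0 and was in 4, 4, 5 and 3 domains later, the widest 11800 to 12800 bp. H3K27ac covered 12.5% of it at D0 and 5.37%, 0%, 0.856% and 1.41% from W1 to W12. The region at Krt5 and Krt6a, the basal keratin and a keratin of stressed and follicular epithelium, was below the limit at D0 and W1 (12400 and 13400 bp) and above it at W2, W6 and W12 (18800, 19600 and 22000 bp). H3K27ac there covered 29.1%, 28.7%, 45.3%, 43.1% and 29.1%. The Krt16 and Krt17 region, of the same inducible class, was very broad throughout at 32200 to 51400 bp, widest at W2. At Krt15 the widest domain was 20000 bp at D0 and 7400, 15000, 15400 and 12200 bp later, with H3K27ac of 21.4%, 22.9%, 14.3%, 1.37% and 0%. Krt14, whose promoter drives the transgene, had 15200, 7800, 16800, 26200 and 8000 bp. Its region was acetylated over 24.5 to 31.6% of bases at every time. Krt80 had its widest domain at D0 and a narrower one in each later list, with 45800, 30800, 20400, 17800 and 14800 bp.

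For 4 of the 7 junction genes with a start in a region, that region was very broad in every list. Cdh1, which encodes E-cadherin, was very broad in all lists at 45600 to 49600 bp, with H3K27ac over 53.6%, 66.1%, 54.0%, 58.2% and 30.3% of the region. Cdh3, which encodes P-cadherin, Ctnnd1, which encodes p120 catenin, and the plakin Ppl were also very broad throughout. The region at the Pkp1 start was below the limit at W12 only (14600 bp), while the Tnnt2 region, which covers part of Pkp1, was very broad in every list. Dsg2 was very broad only at D0 (21200 bp) and Dsc3 only at W2 (19800 bp).

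**Figure D5:**
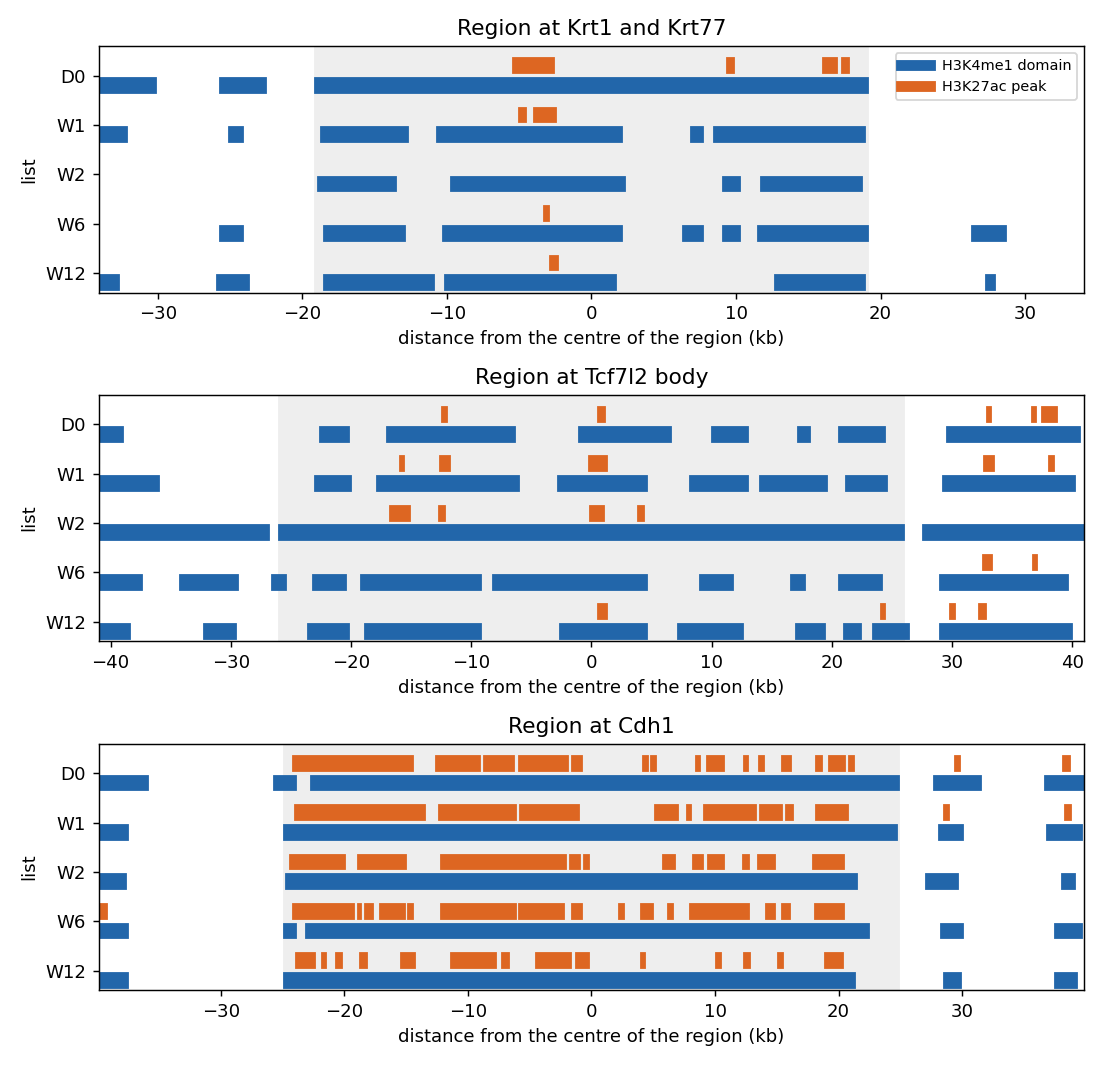
H3K4me1 domains (blue) and H3K27ac peaks (orange) of each pooled list are drawn to scale at 3 regions (grey), with distance from the centre of the region in kb. The region at Krt1 and Krt77 is a single domain at D0 (38200 bp), the one in the Tcf7l2 body at W2 (52000 bp), and Cdh1 keeps a domain of at least 45600 bp in every list.

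Among epidermal transcription factors, Grhl3, a regulator of barrier formation, had domains of 19400, 19400, 15200, 15200 and 15000 bp, the last just under the limit, with H3K27ac over 33.8 to 54.2%. Hopx lay in 2 regions. The larger went from 35000 bp at D0 to 21800 bp at W12 and its H3K27ac from 19.7% to 2.67%, and the smaller was very broad only at D0 (19200 bp), with H3K27ac from 19.1% to 1.91%. Barx2 had 72600 bp, 43000 bp, 73600 bp, 27200 bp and 18400 bp in order of time. Trp63, the master regulator of stratified epithelium, had no start in a region, but 74200 bp inside the gene formed one, with widest domains of 73000, 55800, 73600, 43000 and 43800 bp. H3K27ac covered 18.2%, 19.0%, 30.5%, 16.9% and 18% of it. Counting gene bodies as well, 15 of the 20 factors overlapped a region, among them Gata3, Tfap2a, Cebpa and Runx1, beside 11.4% of all protein-coding genes.

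Of the 20 hair follicle stem cell factors, 5 had a start in a region. The start regions of Lhx2, Tcf7l2 and Gli2 qualified at W2 only and that of Foxp1 at W2 and W12, while that of Sox6 qualified at D0 only. Lhx2, a LIM homeodomain factor needed for follicle stem cells, had widest domains of 6800, 11000, 18000, 4200 and 5400 bp, and its region carried H3K27ac at W2 alone (11.6%). The region at the start of Gli2, an effector of Hedgehog signalling, had 7400, 10600, 15400, 8800 and 8200 bp and H3K27ac over 0%, 11.0%, 20.3%, 6.7% and 0%. Another region, inside Gli2 and away from its start, was very broad at W2 (27400 bp) and W6 (22200 bp). The region at a Tcf7l2 start had a domain of 17600 bp at W2 and of 2200 to 2800 bp otherwise, with no H3K27ac at any time. Foxp1 had H3K27ac over 4.25%, 3.92%, 12.3% and 16.6% in the first 4 lists and its highest cover at W12. The Sox6 region, 17200 bp at D0, had 34.6% at D0, 40.9% at W1, 5.78% at W2 and 0% at W6 and W12. By gene body, Tcf7l1 overlapped 3 regions, 2 of which were very broad at W2 only, and Nfatc1 overlapped 3, all very broad at W2 and 2 of them only then. Nfib, a factor of the nuclear factor I family, overlapped 6, which ranged from very broad at W2 only to very broad in all lists. Single regions in Runx2 and Sox21 were very broad at W6 only (15600 bp) and at W12 only (15400 bp). A region in Runx1, counted here among the epidermal factors, had widest domains of 17200, 18400, 38200, 32400 and 34800 bp with H3K27ac of 5.47%, 27.7%, 39.6%, 27.8% and 17.8%.

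Signalling genes showed both kinds of profile. Dkk3, related to secreted Wnt inhibitors, had 12800 bp, 15800 bp, 44200 bp, 15000 bp and 15600 bp in order of time. The ligand genes Wnt3a, Wnt7b and Wnt16 had their widest domain at D0, with 18800, 41400 and 15800 bp there and 6000, 11400 and 6200 bp at W2. H3K27ac was 20.2%, 11.6% and 17.8% at D0 and 0%, 0% and 13.1% at W2 in their regions. Bmp4, a ligand that restrains follicle stem cells, was very broad at D0 only (15400 bp, then 3600 to 7000 bp), with H3K27ac of 17.1%, 17.1%, 0%, 1.88% and 0%. Maml2, a Notch co-activator, was very broad at W2 only (21200 bp, 5200 bp at D0), with 4.31%, 12%, 29.1%, 22.4% and 21.9%. Smad7, an inhibitor of TGF-beta receptors, had 11800 and 9000 bp at D0 and W1 and 26200 to 28200 bp later, with H3K27ac at 0 to 9.0% in every list. Fos, an AP1 subunit, had 31000, 11800, 11800, 31200 and 21000 bp, while H3K27ac stayed at 29.1 to 36.6% until W6 and was 14.2% at W12. Of the housekeeping genes, Ppia had a start in a region, very broad at W6 only (16800 bp), and the body of Ywhaz held one that was very broad in all lists (16600 to 19800 bp).

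MicroRNA genes were also found in the regions. Of 1174 Mir genes in the annotation, 92 (7.84%) lay in 75 regions. By the same rule of any overlap, 11.4% of protein-coding genes overlapped a region, and 6.68% had a start in one. Those of the microRNA list with a position in or beside a region, and the neighbours Mir200a and Mir429 added after the values were seen, are shown by their mature strands from RefSeq (GRCm38.p6), with the seed, bases 2 to 8, in capitals, because the seed decides which transcripts a microRNA pairs with. The miR-200 family, which keeps epithelial identity, and miR-203, which promotes epidermal differentiation, lie inside regions, and miR-205, abundant in skin stem cells, next to the most densely acetylated one.
miR-200b-3p: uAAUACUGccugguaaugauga
miR-429-3p: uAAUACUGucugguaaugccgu
miR-200a-3p: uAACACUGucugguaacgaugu
miR-203-3p: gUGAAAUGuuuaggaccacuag
miR-21a-5p: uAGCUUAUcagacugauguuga
miR-205-5p: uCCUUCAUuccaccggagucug

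The first 2 share a seed. Mir200b, Mir200a and Mir429 lie in 1 region of 19000 bp on chromosome 4, which also holds a start of Ttll10. Its widest domains were 8400, 7800, 16800, 9600 and 18000 bp, with H3K27ac over 24.2%, 28.2%, 35.2%, 43.2% and 26.4%. The Mir203 region on chromosome 12 had 17800, 11200, 23400, 23400 and 12600 bp, with H3K27ac between 24.2 and 41.1%. The Mir21a region on chromosome 11, within Vmp1, was 6 domains of at most 7600 bp at D0 and had widest domains of 25600, 13800, 17000 and 18000 bp from W1 to W12. Its H3K27ac cover was 10.1%, 28.7%, 35.7%, 55.9% and 43.8%, so that D0 was lowest by both marks. miR-21 is an oncogenic microRNA raised in many tumours.

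Cultured keratinocytes gave an independent H3K4me1 reading, although their domains were called differently and are narrower, so that only covered bases are compared among the cultures. At least 1 culture domain overlapped 98.6% of the regions in WT without DOX. Over all regions, cover was 25.2% in WT without DOX, 26.2% with WT SOX9, 23.4% with noHMG and 24.1% with noTA. The regions whose widest skin domain was narrower than 10000 bp had 20.8%, 22.4%, 20.2% and 21.5%, so that the higher cover with WT SOX9 was not particular to the very broad ones. In W2-only regions cover was 20.2% without DOX and 23.8%, 19.4% and 19.9% with the 3 versions in the same order, and in regions that were very broad at 2 or all of W2, W6 and W12 but not D0 24.9%, 28.3%, 23.0% and 24.6%. In D0-only regions it was 22.1%, 21.1%, 20.6% and 21.7%. Cover with WT SOX9 was also above that without DOX in the regions that were very broad in all lists, at W1 only, at W6 only and at W12 only, and below it in the D0-only regions. A WT value above the value without DOX occurred in 52.8% of all regions (exact 95% interval 51.0 to 54.6, counting error only), against 37.0% for noHMG and 43.8% for noTA. All were set against WT without DOX, the only list without DOX, and narrower regions were not counted in this way. The whole lists also differed, with 110589 domains in WT without DOX, 116042 in WT, 116326 in noHMG and 123338 in noTA. Their median widths were 870, 930, 833 and 879 bp. The Tcf7l2 region went from 3.22% without DOX to 16.2% with WT and was at 3.19% with noHMG and 5.71% with noTA. The other widest W2-only regions had lower cover with WT than without DOX, with 26.6%, 18.2%, 29.7% and 12.8% in Ldlrad3 and 12.2%, 8.14%, 11.0% and 4.95% in Sfrp1. Each culture is 1 pooled list, and none of these differences was tested.

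By base composition the regions differed little from narrower ones. The median GC content was 46.7% in the 2942 regions, 45.8% in the 4050 whose widest domain was over 10000 to 15000 bp and 44.9% in the rest. Repeats made up a median of 20.3%, 20.9% and 18.9%. In the 200 bp windows at H3K27ac summits, the AP1 letters occurred in 5.31% of windows in the regions at D0 (interval 4.87 to 5.78) and 4.66% outside, and at W2 in 5.41% and 5.34%. Either SOX sequence occurred in 6.88% and 6.02% at D0 and in 7.28% and 7.3% at W2. GATA letters occurred in 9.22% of windows at W2 inside and 7.78% outside, and at W12 in 8.29% and 8.84%. The p63 pair was rare, in 0.586% and 0.454% at D0 and 0.662% and 0.401% at W2. The RUNX letters occurred in 3.85% and 3.45% at D0. Peaks inside lay over 2500 bp from a start site more often (77.3% against 56.9% at W2, 77.8% against 69.4% at W12). The windows were not matched for that.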

How the data were processed

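MINT-ChIP reads of sorted EpdSCs and cultured keratinocytes were, per the authors' methods and the submitters' processing notes, split by barcode, trimmed, aligned to GRCm38/mm10 with Bowtie2 (2.2.9), freed of duplicates with Picard and pooled over replicates with SAMtools (1.9). The authors called H3K4me1 domains with epic2 and deposited each with its p-value. The deposited H3K27ac peaks from MACS2 (2.1.1) carry a score, a fold enrichment and −log10 p-values. The deposited culture lists have the same columns as MACS2 broad peaks. How their caller was set is not given in the sources used here. The total H3 libraries and barcode tables were not used here.

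Written domain ends were read as the last base of a 200 bp bin, and mitochondrial entries were set aside. Domains, peaks and start sites of GENCODE M21 were intersected in Python (3.11.15) with pandas (2.3.3); a peak or domain counted for a region from 1 shared bp. Domain widths were not compared with culture widths. Sequence came from GRCm38.p6. The interval code was tested on simulated lists. Replicates were pooled before deposit, so no test was made, and intervals are exact Clopper-Pearson 95% limits (scipy 1.17.1) that cover counting error only. Named regions are the 10 widest, the 5 with the largest smallest width, 3 per single list, the 5 with the most domains, the 5 with the most and 5 without H3K27ac, 3 on either side of the limit, and those at listed genes; a few of these are not reported here. The members and gene lists were chosen with earlier results of these data known. Alternatives were other limits, joining, merging, peak and gene rules, and windows. Absence from a list means only that no domain was called there.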

Additional observations from a re-analysis of the deposited data

How the results depend on the processing

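No paired analysis was possible because each list pools the replicates. For the same reason no replicate could be left out. The number of regions moved from 2942 to 4816 at a limit of 12000 bp and 1469 at 20000 bp, and stayed within 1.5 times with joined domains, a stricter merging rule or without X and Y. Very broad domains moved to 3099 and 905 at D0, 2310 and 609 at W1, 2686 and 729 at W2, 2403 and 666 at W6, and 1978 and 447 at W12, which keeps D0 highest and W12 lowest. The share of regions split moved to 41.0%, 57.9%, 50.3%, 57.6% and 66.7% from D0 to W12 when domains under 1000 bp apart were joined, and to 54.5%, 75.2%, 66.0%, 72.5% and 81.6% at 20000 bp. D0 was lowest and W12 highest in both, an order that the choice of the regions partly fixes. Regions with an H3K27ac peak were 67.1%, 65.6%, 66.5%, 66.7% and 66.6% with peaks above the median score, and 92.5%, 94.2%, 93.5%, 91.9% and 90.1% at 20000 bp. A summit rule gave 86.1% at D0, 86.9% at W2 and 85.1% at W6, and lists of equal length gave 87.7% at W1 and 80.9% at W12. The spread between times was thus nearly gone above the median score. Genes with a start in a region were 767 at 20000 bp. Counting gene bodies, 123 rather than 76 genes of the epithelial, signalling and chromatin lists and 2 rather than 0 markers of other cell types overlapped a region. In windows of 400 bp the AP1 letters occurred in 13.9%, 13.3%, 14.7%, 13.4% and 14.2%. Other alternatives changed nothing beyond these limits. Unknown H3K4me1 depth limits every comparison of widths between lists, and the differing depth and peak widths limit every comparison of H3K27ac cover.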
